A study of Rattus norvegicus with 80 samples.

Results

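The genes described here were expressed in whole mammary pads of wildtype rats and nearly silent in the cell types isolated from them. They were selected on CPM, the count of a gene divided by the library total and scaled by 1e6. The rule asked for a mean under 0.5 CPM in each of wildtype mammary epithelial cells (MECs), adipocytes and fibroblasts, and a mean of at least 2 CPM in wildtype pads. The rule found 283 genes, called members below, among the 32883 genes of the count table. The cell limits alone were met by 18155 genes and the pad limit alone by 13121.

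Gene expression was measured by RNA sequencing of poly(A) libraries in 80 samples of Rattus norvegicus. Wildtype rats were the controls, and 3 rat lines named IF, PS and IFPS carried mutations of Nf1, which encodes neurofibromin, a protein that turns Ras off. The labels give neither the allele behind a line's name nor the age of the animals or whether 2 samples share an animal, so p-values measure the spread between these samples. Whole pads came from 6 wildtype, 3 IF, 6 PS and 6 IFPS samples and tumors from 5 IF, 9 PS and 9 IFPS samples, while MECs, adipocytes and fibroblasts came from 3 samples each of wildtype and of every line. MECs and fibroblasts were grown in culture before extraction and mature adipocytes were not. Titles number the pads 1 to 12, with 3 for each of the 4 lines, and 13 to 21, with 3 each for wildtype, IFPS and PS. What else separates these sets of pads is not given in the labels. The libraries of each cell type are numbered 1 to 12 only.

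A mammary pad is a mixed tissue. Beside the epithelial ducts, adipocytes and fibroblasts that were isolated here, a pad can hold blood and lymph vessels, nerves, immune cells, a lymph node and strips of neighbouring muscle, and the share of each depends on how the pad was cut. A tumor can replace much of the fat and stroma of a pad. In such bulk samples fewer cells of a type and less RNA per cell cannot be told apart.

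The table names genes by Ensembl identifiers and does not pair them with symbols, and 0 of the 32883 identifiers matched the reference table used here. Which tissues the members mark is therefore described by how the members vary together, and groups of members carry numbers. The level of Nf1 and of markers of named cell types was not analysed here. Library totals lay between 17.3e6 and 37.3e6 counts.

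In the wildtype samples that chose them, the members were a small part of the RNA. Their summed level was 1063 to 4147 CPM in the 6 wildtype pads, against 25.6 to 32.8 CPM in wildtype MECs, 34.1 to 41.3 CPM in wildtype adipocytes and 12.7 to 20.8 CPM in wildtype fibroblasts. The median member had a mean of 4.42 CPM in wildtype pads and the highest 103 CPM. Of the members 128 lay under 4 CPM, 76 from 4 to under 10 CPM and 79 at 10 CPM or more, and 12 had no count in any of the 9 wildtype cell libraries. Just inside the pad limit were genes at 2.003 and 2.007 CPM and just outside genes at 1.999 and 1.992 CPM, and just inside the cell limit were genes at 0.4933 and 0.4915 CPM and just outside genes at 0.501 and 0.509 CPM. These limits pass through a dense range of levels, so the edge of the set is arbitrary. Only 70 of the 283 reached 2 CPM in every wildtype pad, and 213 met the rule through some of the 6 pads.

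The mutated lines, which the rule did not use, showed the same contrast in part. Of the 283 members, 243 were under 0.5 CPM in each cell type and at 2 CPM or more in pads of the IFPS line, 222 in the PS line and 100 in the IF line. Over all genes of the table this pattern was met by 362 genes in IFPS, 336 in PS and 135 in IF, so members were most of the genes with it in every line. It held in all 3 lines for 91 members and in none for 27. Members would pass a filter on low values through pads alone, so these counts carry no test.

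In the IF line the cell limit was passed mostly in adipocytes. In IF adipocytes 143 members had a mean of 0.5 CPM or more, against 11 in PS and 7 in IFPS adipocytes. The summed level of the members was 251, 127 and 299 CPM in the 3 IF adipocyte libraries and 26.3 to 41.3 CPM in the 9 other adipocyte libraries. All 3 IF libraries lay above all 9 others for 133 of the 283 members, which is 47.0% of them, and for 13.8% of the 22289 genes with a count in adipocytes. The same 3 libraries also held more RNA of genes of other cells. Of 234 genes at least 8-fold higher in wildtype MECs than in the other wildtype cells, the mean log2 CPM was 3.84, 0.87 and 3.46 in IF adipocytes and -0.90 to 0.67 in the other adipocytes, and of 59 such fibroblast genes it was 3.05 to 3.87 against 1.34 to 1.99. The part of these other cells in the members' level was not tested. Among MECs 1 IFPS library, replicate 3, had a summed level of 344 CPM, of which 311 CPM came from 1 member. That member was at 0.33 CPM and 0.32 CPM in the other IFPS MEC libraries and ranged from 0 to 228 CPM in wildtype pads. Without it the library's sum was 32.9 CPM, within the range of the other MEC libraries.

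**Figure D1:**
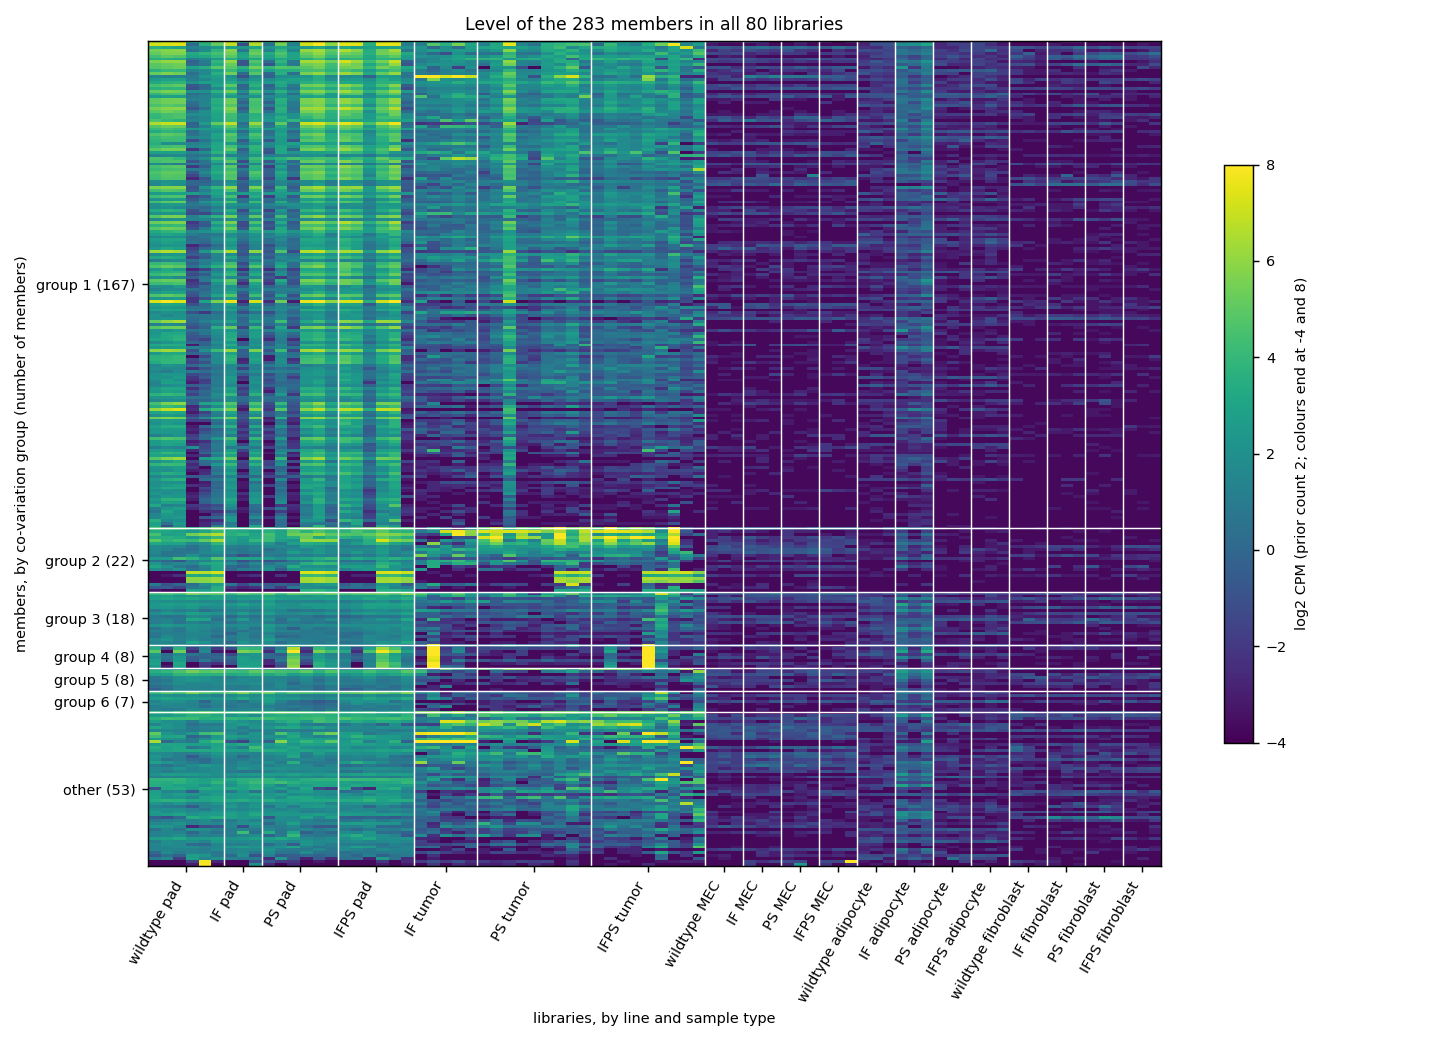
Each row is 1 of the 283 members and each column 1 of the 80 libraries, ordered by sample type and line; colour is log2 CPM with a prior count of 2. Group 1 (167 members) is high in some pads and low in others of the same line, the bright blocks of group 4 are 1 IF and 1 IFPS tumor, and among the isolated cells the 3 IF adipocyte libraries are the lightest columns.

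Members fell into a few sets that rose and fell together from pad to pad. Clustering by the correlation of log2 CPM over the 15 pads of the mutated lines (average linkage, cut at a distance of 0.5, where distance is 1 minus Pearson's r) gave 6 groups of 5 or more members with 230 members in all, and 53 members stayed in smaller groups. The largest, group 1, held 167 members or 59.0% of the set. The median correlation between its members was 0.92 over these 15 pads, and 0.96 over the 6 wildtype pads. The clustering did not use the wildtype pads, but the rule chose the members by them, many through some of these pads only, so this value is no independent check of the group. Over the 23 tumors it was 0.45. These are descriptions of points that share libraries and depth. Group 2 had 22 members, group 3 had 18, groups 4 and 5 had 8 each and group 6 had 7. Their median correlations over the mutated pads were 0.64, 0.66, 0.93, 0.73 and 0.58 in that order.

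Group 1 varied widely between pads of the same line. Its summed level, which adds genes of different length and is compared between libraries only, was 2634, 3532, 3522, 180, 337 and 1021 CPM in wildtype pads 1 to 6. In IF pads it was 3037, 199 and 2136 CPM. In PS pads it was 218, 1089, 304, 3395, 4710.5 and 1570.4 CPM. In IFPS pads it was 4493, 3277, 621, 2689, 4589 and 193 CPM. Every line thus held at least 1 pad of 3037 CPM or more beside at least 1 pad of 218 CPM or less. Single members reached a mean of 103 CPM in wildtype pads. Over the mutated pads the median SD of log2 CPM was 1.98 for members of group 1, 1.33 for all members and 0.30 for the 17227 genes tested in tumors and pads. By the same measure it was 0.53 for 300 genes at least 8-fold higher in wildtype adipocytes than in the other wildtype cells, 0.44 for the 234 MEC-enriched genes and 0.46 for the 59 fibroblast-enriched genes. The 234 genes enriched in wildtype MECs were lowest in wildtype pad 4 (mean log2 CPM 3.20) and IFPS pad 6 (3.85), which are the 2 pads lowest in group 1 (180 and 193 CPM), but stood at 4.34 in PS pad 1 (218 CPM) and 5.16 in PS pad 3 (304 CPM).

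Many genes outside the members followed the same course. Of 16945 other genes tested in tumors and pads, 871 (5.14%) correlated at r of 0.9 or more with the mean of group 1 over the 15 mutated pads, and 8 at -0.9 or less. By the same measure against the mean of the others in the group, 136 of the 167 members of group 1 did. Of the 871 genes, 161 were under 0.5 CPM in each wildtype cell type and 710 were not, and 411 reached 10 CPM in at least 1 of them. Group 1 was thus part of a wider set of genes that moved together over pads.

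The 2 sets of pads did not move group 1 the same way in each line. In wildtype all 3 pads 13 to 21 lay below all 3 pads 1 to 12, in PS all 3 lay above, and in IFPS the sets overlapped. Within PS, pads 13 to 21 had a median log2 fold change of 2.61 over group 1, and 92 of its 167 members had an unadjusted p under 0.05 in edgeR's quasi-likelihood test, against 20.2% of all genes. These members moved together over the same pads, so the 92 are not separate results. None of the 167 passed after Benjamini-Hochberg adjustment over all genes. Within IFPS the median was -0.14 and 0 of the 167 had an unadjusted p under 0.05, against 8.97% of all genes. Whether the lines differ in this respect was not tested.

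Group 2 separated the pad sets. Its summed level was 367 to 782 CPM in the 9 pads 13 to 21 and 56.7 to 155 CPM in the 12 pads 1 to 12, with no overlap. Much of this came from 5 members that were on in 1 set and off in the other: each was above 5 CPM in all 9 pads 13 to 21 and under 0.5 CPM in all 12 pads 1 to 12. Together these 5 had 237 to 413 CPM in pads 13 to 21. The remaining 17 members of group 2 had 113 to 437 CPM in pads 13 to 21 and 56.6 to 155 CPM in pads 1 to 12, which overlap.

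Of the 5, ENSRNOG00000060048 had 0 counts in all 12 pads 1 to 12. In pads 13 to 21 it was at 63.7, 64.5 and 76.6 CPM in wildtype, at 78.4, 81.0 and 65.9 CPM in IFPS and at 82.1, 91.5 and 75.9 CPM in PS. A floor was set at the level that 3 counts over the 3 pads 1 to 12 of the line would give. Against it ENSRNOG00000060048 was at least 1900.2-fold higher in PS and at least 2055-fold higher in IFPS. It was chosen for the smallest p between the sets and met the filter through pads 13 to 21 alone. Its p-values therefore follow from the choice and are not given. Its fitted log2 fold changes of 14.07 and 14.01 depend on the prior count. In the pads of all 3 lines with both sets it thus had 2 states with nothing between.

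The same 5 members were on in 8 tumors, and off in every isolated cell library. Titles number the libraries of each cell type 1 to 12, as the pads in which these members were off. Their absence from cells thus cannot be told apart from their absence in that set of pads. They were on in PS tumors 7, 8 and 9 and in IFPS tumors 5 to 9, with a summed level of 155 to 343 CPM, and in 0 of the 5 IF tumors. In the other 63 libraries of the series their summed level was at most 0.36 CPM. The 5 stand within 29 consecutive rows of the 32883 rows of the count table, at rows 32541 to 32569. A search of all genes for the opposite state, under 0.5 CPM in every pad 13 to 21 and above 5 CPM in every pad 1 to 12, found 2 genes outside the members, in adjacent rows of the table (13519 and 13520). Their summed level was 139 to 229 CPM in pads 1 to 12, at most 0.06 CPM in pads 13 to 21, and 83.1 to 229 CPM in all 36 cell libraries. In the 8 tumors with the 5 members on it was at most 1.21 CPM, and in the 15 others it ran from 109 to 532 CPM except in IFPS tumors 1 and 2, where it was 0 and 0.04 CPM. The on and off states therefore followed libraries across lines and across pads and tumors, and what they stand for was not tested.

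**Figure D2:**
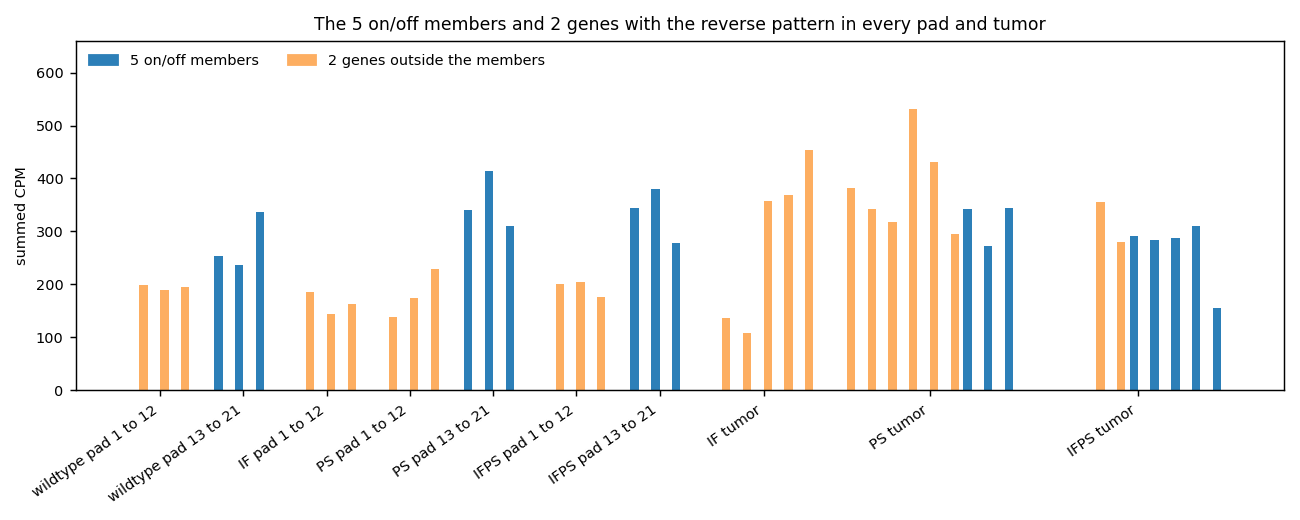
Bars give the summed CPM (linear axis) of the 5 on/off members and of the 2 genes with the reverse pattern, 1 pair of bars for each pad and tumor in replicate order. Blue bars reach 237 to 413 CPM in the 9 pads 13 to 21 and 155 to 343 CPM in 8 tumors, orange bars stand in the other libraries, and IFPS tumors 1 and 2 have neither.

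Between pad sets 7 members passed the test in PS (6 higher and 1 lower in pads 13 to 21) and 5 in IFPS, all higher. Of all genes 1.01% passed in PS and 0.159% in IFPS. The 5 in IFPS were the on/off members, which the sets themselves chose for description, and PS added 1 member of group 2 and 1 lower member, ENSRNOG00000001027 (log2 fold change -1.27, SE 0.29, adjusted p = 0.0496). That last call did not hold in 12 of 16 alternatives, among them RLE size factors (adjusted p = 0.0516), no filter on low counts (0.0677), only the PS pads (0.138) and leaving out any single PS pad.

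By edgeR no member passed between pads of a mutated line and wildtype pads. With the pad set as a covariate, 0 of 282 members tested passed in IF, PS or IFPS by edgeR, against 0%, 0.0061% and 0% of all genes. At an unadjusted p under 0.05 there were 9 members in IF, 11 in PS and 14 in IFPS, against 1.87%, 10.2% and 7.92% of all genes. DESeq2 called 0, 1 and 0 members, against 0%, 0.468% and 0.105% of all genes. The wildtype pads also chose the members, so this comparison is a description. The median log2 fold change over members was -0.02, 0.01 and 0.21. With pads 1 to 12 alone it was -0.52, -1.09 and -0.19, and with pads 13 to 21 alone it was 1.26 in PS and 1.16 in IFPS. The sign of the PS and IFPS medians thus differed between the pad sets, and a single covariate for the set, which assumes the same shift in each line, takes such opposite differences into the spread. Within a set no member passed by edgeR either, but more had an unadjusted p under 0.05. In PS these were 116 of 276 members with pads 1 to 12 alone (19.8% of all genes) and 107 of 281 with pads 13 to 21 alone (23.7%). In IFPS they were 9 of 276 (5.04%) and 47 of 281 (11%), and in IF 10 of 276 (6.43%).

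More members passed as lower than as higher in tumors against pads of the same line. Of the 282 members tested, 111 were lower and 7 higher in IF tumors, 122 lower and 7 higher in PS tumors, and 139 lower and 9 higher in IFPS tumors (edgeR quasi-likelihood test, Benjamini-Hochberg adjusted p under 0.05 over 17227 genes). Lower calls were 39.4%, 43.3% and 49.3% of members, against 13.2%, 20.8% and 12.3% of all genes, and higher calls were 2.48%, 2.48% and 3.19% against 10.1%, 18.1% and 15.6%. Over members the median log2 fold change of tumors was -2.33 for IF, -1.71 for PS and -1.63 for IFPS, and over all genes 0.05, 0.01 and 0.09. The PS median was -0.26 with pads 1 to 12 alone and -2.25 with pads 13 to 21 alone. Setting members with a group at 0 to the level of 3 counts over that group left these 3 medians as they were. Because the rule asked for a level in pads, the direction of these counts is not independent of the choice of members. Group 1, with 59.0% of the members, moved together over pads, so the counts are not of separate results.

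Fewer of the lower members were separated from pads in every sample. Lower with no overlap of the samples were 61 members in IF, 42 in PS and 18 in IFPS, against 10.6%, 8.79% and 1.87% of all genes, and higher with no overlap were 6, 0 and 0, against 7.26%, 10.8% and 1.32%. The calls by adjusted p, with or without overlap, also fell with fewer pads, and in PS the fall depended on the pad set. In PS the 122 lower members became 57 with pads 1 to 12 alone, against 11.6% of all genes. With pads 13 to 21 alone they became 102, against 9.82%. In IFPS the 139 became 104 with pads 1 to 12 alone, against 4.37% of all genes. With pads 13 to 21 alone they became 87, against 4.42%. In IF the 111 became 64 without pad 1 (8.16% of all genes) and 68 without pad 3 (6.84%).

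Cell-enriched genes shifted between the same samples. The mean log2 CPM of the 300 adipocyte-enriched genes was 4.42 to 4.94 in pads and 1.85 to 4.19 in 22 tumors, with IFPS tumor 6 at 5.37. That of the 59 fibroblast-enriched genes was 3.79 to 4.73 in pads and 2.02 to 4.04 in tumors. That of the 234 MEC-enriched genes was 3.20 to 5.16 in pads and 4.30 to 6.16 in 20 tumors, but 2.78, 0.77 and -0.08 in IFPS tumors 6, 8 and 9. Without these 3 tumors 187 of 282 members passed in IFPS, 174 of them lower. Over all genes 8474 of 17099 passed in that fit, 4269 of them lower. With all IFPS tumors 4814 of 17227 genes had passed, 2120 of them lower. Calls thus rose over all genes and not for members alone. Without the 3 tumors the median log2 fold change was -2.45 over members and 0.04 over all genes. The part of tissue composition in the members' levels was not tested.

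**Figure D3:**
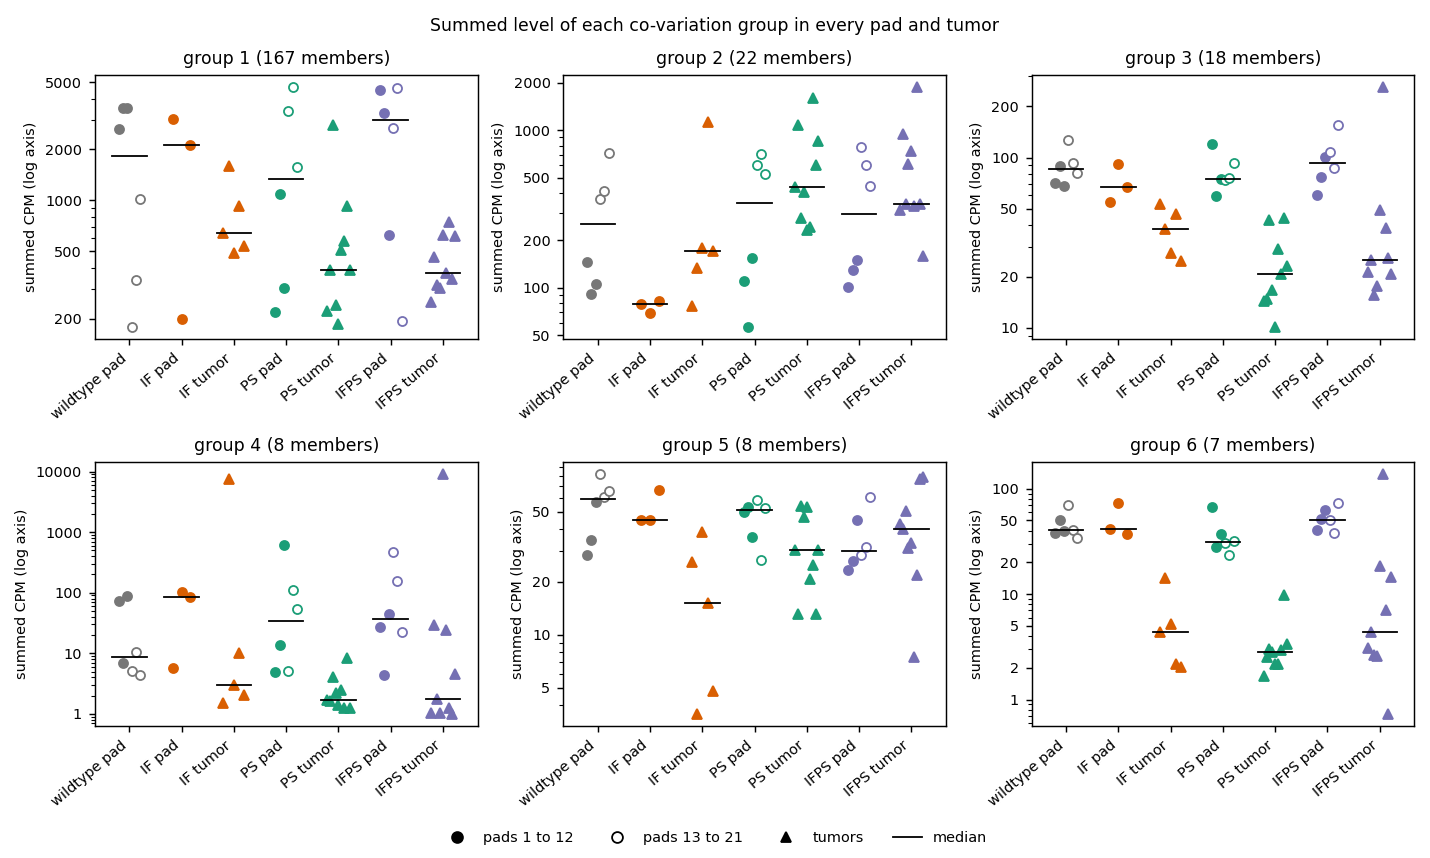
Each panel shows the summed CPM (log axis) of 1 co-variation group in every pad (circles; filled for pads 1 to 12, open for 13 to 21) and tumor (triangles), with the median as a line. Tumors of groups 3 and 6 lie mostly below pads, tumors of group 1 lie at 187 to 2780 CPM, mostly among the pads, and single tumors of group 4 reach 7682 and 9250.4 CPM.

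Of the 167 members of group 1, 77 were lower in IF tumors, 62 in PS tumors and 113 in IFPS tumors. In the same order 1, 1 and 0 were higher. The shares lower were 46.1%, 37.1% and 67.7% of the group, against 13.2%, 20.8% and 12.3% of all genes. The shares higher were 0.6%, 0.6% and 0%, against 10.1%, 18.1% and 15.6%. The group was formed by movement together over these same pads, so its calls are not separate results. Group 1 held 59.0% of the members and 69.4%, 50.8% and 81.3% of the members called lower in IF, PS and IFPS. Its summed level was 646, 1606, 491, 923 and 536 CPM in IF tumors. In PS tumors it ran from 187 to 924 CPM with PS tumor 3 apart at 2780 CPM, and in IFPS tumors from 251 to 746 CPM. IF pad 2 (199 CPM) was below every IF tumor and IFPS pad 6 (193 CPM) below every IFPS tumor. In PS the lowest pad, at 218 CPM, was below 8 of the 9 tumors and above tumor 5, at 187 CPM. Lower with no overlap were 27 members of group 1 for the IF line, 0 for PS and 5 for IFPS. Of all genes 10.6%, 8.79% and 1.87% were so. In each line the pads thus reached nearly as low as the tumors or lower.

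In groups 3, 5 and 6 the sums varied less between pads than in group 1, and part of the members passed as lower in tumors. These groups too were formed by movement together over pads, so their calls are not separate results. The 18 members of group 3 summed to 54.8 to 155 CPM in pads, 24.7 to 53.3 CPM in IF tumors and 10.2 to 44.3 CPM in PS tumors. In IFPS tumors group 3 ran from 15.6 to 49.2 CPM with tumor 6 apart at 262 CPM. Of group 3, 14 members were lower in PS tumors, 12 of them with no overlap, 8 in IF and 5 in IFPS. These are 77.8%, 44.4% and 27.8% of the group, where 20.8%, 13.2% and 12.3% of all genes were lower in PS, IF and IFPS. The 7 members of group 6 summed to 23.5 to 73.5 CPM in pads, against 2.04 to 14.3 CPM in IF tumors, 1.67 to 9.86 CPM in PS tumors and 0.73 to 18.4 CPM in IFPS tumors other than tumor 6, at 139 CPM. All 7 members of group 6 were lower in PS tumors, 3 in IF and 2 in IFPS. Group 5 summed to 23.4 to 82.3 CPM in pads and overlapped in tumors (3.55 to 78.6 CPM), with 4, 7 and 4 of 8 members lower in IF, PS and IFPS and 1 member higher in both PS and IFPS. The 2 tumor values above the pads in groups 3 and 6 were of the same IFPS tumor 6, which also had the highest level of adipocyte-enriched genes of all tumors.

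Group 4 was extreme in 2 tumors. Its 8 members summed to 4.30 to 620 CPM in pads with no order by line, and to 1.23 to 8.45 CPM in PS tumors. In PS 7 of the 8 passed as lower, against 20.8% of all genes, but these members moved together and are not 7 separate results. In IF tumors the sums were 1.49, 7682, 3.04, 10.02 and 2.04 CPM. In IFPS tumors they ran from 1.003 to 29.7 CPM with tumor 5 at 9250.4 CPM. No member of group 4 passed in IF or IFPS. The median correlation between its members was 0.93 over the mutated pads, 0.90 over wildtype pads and 0.92 over tumors. The other 5 groups had 0.13 to 0.48 over tumors.

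In group 2 few members passed in tumors. Its sums were 77.1 to 179 CPM in IF tumors with tumor 4 at 1125 CPM, 232 to 1595 CPM in PS tumors and 159 to 1895 CPM in IFPS tumors. Of its 22 members 2 were higher and 2 lower in IF, 3 higher and 3 lower in PS, and 2 higher and 4 lower in IFPS. The shares higher were 9.09%, 13.6% and 9.09%, against 10.1%, 18.1% and 15.6% of all genes, and the shares lower 9.09%, 13.6% and 18.2%, against 13.2%, 20.8% and 12.3%. They are near or below the background except for the lower members in IFPS.

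**Figure D4:**
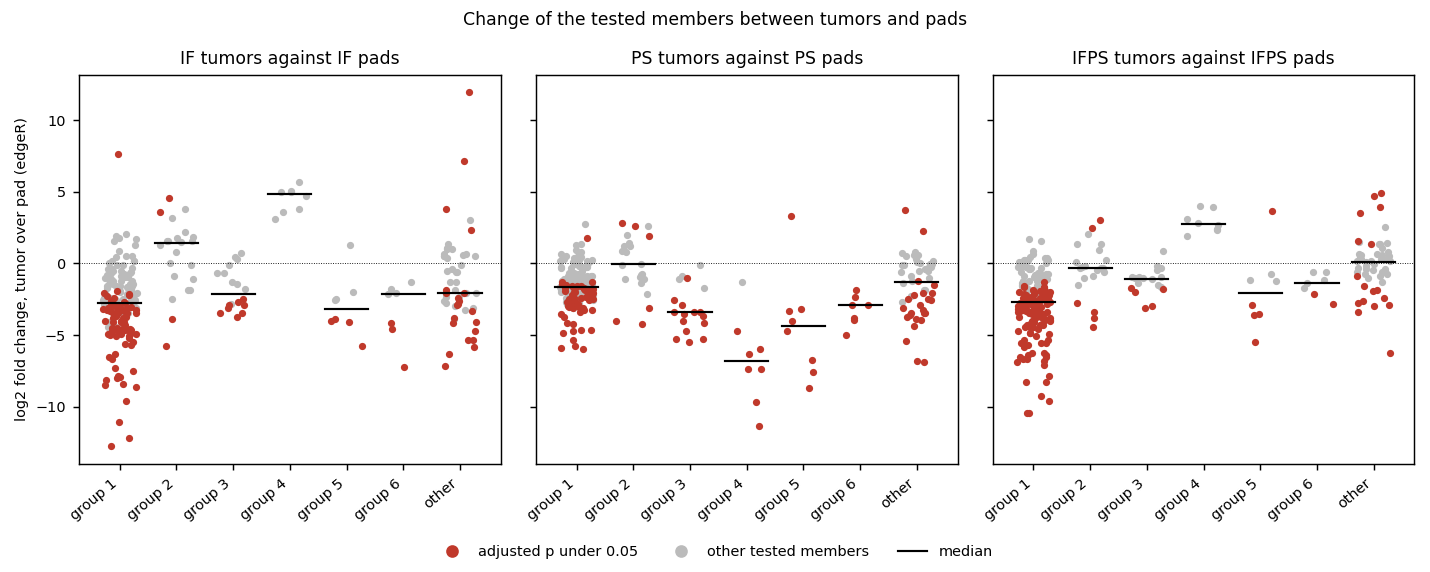
Points are the log2 fold changes of the tested members in tumors over pads of the same line, by co-variation group, from edgeR; red points have an adjusted p under 0.05 and lines are medians. Most red points lie below 0 in groups 1, 3, 5 and 6, and group 4 lies below 0 in PS and above 0, with no red point, in IF and IFPS. In IF and IFPS group 4 was extreme in 1 tumor each and far lower in the other tumors.

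Across lines, 59 members were lower in tumors of all 3, of which 44 belong to group 1, and 0 were higher in all 3. Of all genes 4.99% were lower in all 3. Lower in all 3 with no overlap in any were 6 members, against 0.685% of all genes. Of these 6 the pair with the largest mean fall over the lines is given.

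ENSRNOG00000001027, which belongs to no group of 5 or more, was at 4.21, 5.19 and 6.74 CPM in IF pads and at 0.08, 0.09, 0, 0 and 0.17 CPM in IF tumors. In PS it ran from 2.66 to 8.86 CPM in pads (median 4.60) and from 0 to 0.25 CPM in tumors (median 0). In IFPS it ran from 3.45 to 8.33 CPM in pads (median 3.90) and from 0 to 2.01 CPM in tumors (median 0.20). It was lower in every tumor than in every pad of its line, which its choice required. The choice also required an adjusted p under 0.05 in all 3 lines, so its p-values are descriptions. The log2 fold changes were -6.30 (SE 1.23, adjusted p = 0.0011), -6.87 (SE 0.94, adjusted p = 5.5e-06) and -2.92 (SE 0.76, adjusted p = 0.0050) by edgeR.

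ENSRNOG00000016878, of group 5, was at 9.60, 11.1 and 15.2 CPM in IF pads and at 3.23, 0.04, 0, 0.57 and 0.17 CPM in IF tumors. In PS it ran from 5.17 to 13.9 CPM in pads (median 9.215) and from 0 to 0.19 CPM in tumors (median 0). In IFPS it ran from 4.07 to 12.4 CPM in pads (median 6.98) and from 0 to 2.80 CPM in tumors (median 0.08). Tumors again lay below pads in every line, which the choice of this gene required, as it did an adjusted p under 0.05 in each. The log2 fold changes were -4.04 (SE 1.28, adjusted p = 0.0223), -7.55 (SE 1.15, adjusted p = 2.0e-05) and -3.63 (SE 0.94, adjusted p = 0.0046) by edgeR, and the first missed the threshold without IF pad 3 (adjusted p = 0.0631).

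Few members were higher in tumors. Their means ran from 0.735 to 4.51 CPM in IF pads and from 9.70 to 4521 CPM in IF tumors for the 7 higher in IF, from 9.74 to 144 CPM in PS tumors for the 7 higher in PS and from 3.48 to 185 CPM in IFPS tumors for the 9 higher in IFPS. The largest rise in IF was that of ENSRNOG00000039331, also in no group of 5 or more. It was chosen among members that passed in IF with no overlap, so its separation and call in IF follow from the choice. It was at 0.46, 0.24 and 2.86 CPM in IF pads and at 2868, 8434, 1968, 7738 and 1597 CPM in IF tumors. The 5 IF tumors all lay above the 3 IF pads (log2 fold change 11.95, SE 3.58, edgeR adjusted p = 0.0169), and the adjusted p was 0.0679 without IF pad 1 and 0.0717 without IF pad 2. In IFPS it ran from 0.76 to 13.1 CPM in pads (median 5.04) and from 0 to 1073 CPM in tumors (median 8.75), which overlap (log2 fold change 4.95, SE 1.87, adjusted p = 0.0453). That call did not hold in 17 of 46 alternatives, with an adjusted p of up to 0.286 with pads 1 to 12 only, and 0.107 without IFPS tumor 5. In PS it ran from 0.71 to 56.2 CPM in pads (median 12.9) and from 0 to 163 CPM in tumors (median 0.17), with no call (log2 fold change -0.21, SE 1.47, adjusted p = 0.924). This 1 gene made up most of the summed level of the members in IF tumors 1, 3, 4 and 5, which was 4073, 3262, 10659 and 2641 CPM.

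Tumors of the 3 lines differed in a minority of members. Of 235 members tested among tumors, 28 (11.9%) passed the test over the 3 lines, against 7.65% of all genes. At an unadjusted p under 0.05 these were 104 of 235 members and 4516 of 15966 genes. Between pairs of lines 9 members differed between IF and PS tumors (6 higher and 3 lower in IF, against 2.48% of all genes) and 10 between IF and IFPS tumors (6 higher and 4 lower in IF, against 4.25% of all genes). Of the 6 members higher in IF than in PS tumors 4 belong to group 4, in which IF tumor 2 was extreme, and without that tumor 2 members in all passed. DESeq2 called more members and turned the balance of directions: 6 higher and 17 lower in IF than in PS tumors (5.95% of all genes called), and 11 higher and 28 lower in IF than in IFPS tumors (10.3%). Between IFPS and PS tumors edgeR called 0 members and 0% of all genes. There 75 members had an unadjusted p under 0.05, against 22.2% of all genes, and DESeq2 called 26 members, against 6.19% of all genes. Leaving out IFPS tumor 1, 2, 3, 4 or 7 gave 17 to 20 members by edgeR. The share of all genes called in those fits is not given here, so these counts have no background beside them.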

How the data were processed

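RNA of pads, tumors, mature adipocytes and cultured cells was sequenced as poly(A) libraries, per the labels' protocols. The deposited values are counts, whole numbers of reads per gene as made by the authors with Trim Galore and STAR 2.5.2b on Rnor_6.0, per the submitters' processing notes. The counting tool, the annotation and the use of strand are not given in the sources used here, so genes that share reads with a copy, an overlapping or an antisense gene are uncertain. The members and lists were chosen with earlier results of these data known.

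CPM was computed from column totals. Tests used edgeR 4.0.16 in R 4.3.3 (quasi-likelihood test, TMM, filterByExpr, Benjamini-Hochberg over all genes, threshold 0.05). Tumors and pads of the mutated lines shared 1 fit of 6 groups, tumors another, and pads another with the pad set as covariate. Standard errors were derived from the fold change and the F statistic. Log2 CPM used a prior count of 2. All 166 pairs of libraries of 1 group differed by more than sampling noise (chi-square per degree of freedom at least 8.70). The test was checked on simulated data. Cell-enriched genes had at least 20 CPM in 1 wildtype cell type and 8-fold over both others. Depth was 17.3e6 to 37.3e6 counts.

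Genes were to be named by tissue lists, the highest levels and the largest changes. With no symbols (0 identifiers matched 47357 GRCr8 gene records) the 20 lists and the sequences were not used, clustering was added after the data were seen, and 4 identifiers are printed, chosen after their values were seen: the largest rise with no overlap in IF tumors, the smallest p between pad sets in both lines, and the 2 largest falls shared by all lines with no overlap. Alternatives were RLE factors, no filter, DESeq2 1.42.0, other sets of pads or groups, and leaving out each library.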

Additional observations from a re-analysis of the deposited data

Results flagged for a closer look

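Single samples stood apart from the others of their group by Dixon's criterion in 23 instances over 71 tests of levels in groups of 5 to 9 libraries. Chance alone gives about 1 in 20, and the levels are skewed and shared between members, so the tests are not independent. For the summed level of all members IFPS tumor 5 stood apart at 12287 CPM, with the next IFPS tumor at 3161 CPM. For group 1 it was PS tumor 3 at 2780 CPM, next 924 CPM. For group 2 they were IFPS tumor 7 at 1895 CPM, next 941 CPM, and IF tumor 4 at 1125 CPM, next 179 CPM. Without the 5 on/off members, group 2 was also apart in IF tumor 4 at 1125 CPM, in IFPS pad 4 at 437 CPM and in wildtype pad 6 at 384 CPM. For group 3 it was IFPS tumor 6 at 262 CPM, next 49.2 CPM.

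Group 4 stood apart in 5 groups of libraries: in IFPS tumor 5 at 9250.4 CPM, IF tumor 2 at 7682 CPM, PS tumor 8 at 8.45 CPM, IFPS pad 4 at 478 CPM and PS pad 3 at 620.5 CPM. Group 6 stood apart in IFPS tumor 6 at 139 CPM, IF tumor 2 at 14.3 CPM, PS tumor 8 at 9.86 CPM and PS pad 1 at 66.9 CPM. ENSRNOG00000039331 was highest in IFPS tumor 5 at 1073 CPM, PS tumor 8 at 163 CPM and wildtype pad 1 at 89.8 CPM. ENSRNOG00000001027 was highest in PS tumor 8 at 0.25 CPM, and ENSRNOG00000016878 in IFPS tumor 9 at 2.80 CPM and IF tumor 1 at 3.23 CPM.

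The pad sets moved in opposite directions in 2 lines. The summed level of all members was 4332 CPM on average in PS pads 13 to 21, all above the mean of 1343 CPM in PS pads 1 to 12, and 1666 CPM in wildtype pads 13 to 21, all below the mean of 3860 CPM in wildtype pads 1 to 12. For group 1 these means were 3225 against 537 CPM in PS and 513 against 3229 CPM in wildtype. The difference between the lines was not tested.

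Isolated cells held a signal of the members in 2 places. The summed level averaged 226 CPM in IF adipocytes and 37.3 CPM in wildtype adipocytes, and IFPS MEC replicate 3 reached 344 CPM against a mean of 28.1 CPM in wildtype MECs.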

How the results depend on the processing

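The number of members follows its limits: 185 with under 0.25 CPM in cells, 487 with under 1 CPM, 513 with at least 1 CPM in pads and 155 with at least 4 CPM, and 265 to 299 without any single wildtype library. Group 1 held 165 and 167 members at distances of 0.4 and 0.6, 141 with complete linkage, 168 over all 21 pads and 167 to 171 without any single pad, but 103 when clustered over the 23 tumors, 102 of them in group 1. For tumors against pads, members called in PS were 58 with pads 1 to 12 only and 103 with pads 13 to 21 only. In IFPS they were 105 and 88 in that order. Without single libraries they ranged from 68 to 127 in IF (68 without IF pad 1 and 72 without IF pad 3), from 92 to 179 in PS and from 133 to 165 in IFPS. A covariate for the on/off state, added after the data were seen, gave 118 lower members in IF, 89 in PS and 152 in IFPS. Over all genes 14.1%, 19.9% and 14.3% were lower there. The median log2 fold change over members was then -2.33, -1.46 and -1.94. Lower calls outnumbered higher ones under each of these.

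Counts among tumors were unstable. DESeq2 gave 23 members for IF against PS, 39 for IF against IFPS and 26 for IFPS against PS. The covariate for the on/off state, added after the data were seen, gave 20 of 235 members for IF against PS and 12 over the 3 lines. Over all genes 793 and 450 of 15966 were called there. Without IFPS tumors 6, 8 and 9, also added later, 23 of 227 members were called for IF against PS and 20 for IF against IFPS. Over all genes these were 1979 and 1472 of 15753. Without single tumors the ranges were 2 to 13 for IF against PS, 6 to 16 for IF against IFPS (6 without IF tumor 1 and 16 without IFPS tumor 8), 0 to 20 for IFPS against PS and 13 to 34 over the 3 lines. The low end was reached without IF tumor 2 for IF against PS, where leaving out PS tumor 1, 2, 3, 4, 5, 6, 7 or 9 gave 4 or 5, and without IF tumor 4 over the 3 lines, where leaving out IF tumor 3 or 5, IFPS tumor 6 or 9 or any PS tumor but 8 gave 14 to 18. Between PS and wildtype pads DESeq2 called 1 member, and without single pads 0 to 1 were called (1 without PS pad 1), and 0 for IF and IFPS. Between pad sets DESeq2 called 26 of 281 members in PS, against 847 of 17127 genes. By edgeR, without single pads, 5 to 11 were called in PS (11 without IFPS pad 6) and 5 to 7 in IFPS. Shares of all genes are not given for the fits without single tumors or pads in this paragraph, so those counts have no background beside them. Causes of these shifts were not tested.

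The called changes of the 4 printed identifiers kept their sign in all alternatives. Calls with an adjusted p of 0.05 or more in some alternative were those named above for IF, ENSRNOG00000001027 between PS pad sets (12 of 16 alternatives, adjusted p up to 0.22025 without PS pad 5; also lost without any other single PS pad or IFPS pad 2, 4 or 5), ENSRNOG00000039331 in IFPS (17 of 46, up to 0.286; also lost without any single IFPS pad, IF pad 1, PS pad 4, 5 or 6, or IFPS tumor 3 or 5), ENSRNOG00000001027 in IFPS with pads 13 to 21 only (-2.53, adjusted p = 0.114) and ENSRNOG00000016878 in IFPS with pads 1 to 12 only (-3.23, adjusted p = 0.0864). No paired analysis was possible because the groups compared share no replicate numbers in the titles. Placing members with tissue lists was not run, since no symbols were matched. Members near 2 CPM rest on few counts per library, which limits the precision of their changes.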
